A study of Homo sapiens with 6 samples.

Results

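A set of 10 genes that make, receive, pass on or restrain the transforming growth factor beta (TGF-beta) signal was followed in MDA-MB-231 cells grown on glucose or on fructose: the ligands TGFB1, TGFB2 and TGFB3, the receptors TGFBR1, TGFBR2 and TGFBR3, the signal carrier SMAD3, the feedback inhibitors SMAD7 and SKIL, and the induced matrix protein TGFBI. They were chosen by name, through the gene annotation of the array, and 10 of 10 were found among 18404 annotated genes, each with 1 probe set. A probe set is the group of short probes that reports a transcript. MDA-MB-231 is a widely used human cell line, derived from a breast cancer that lacks hormone receptors. One group of 3 cultures grew in DMEM with 25 mM glucose and the other of 3 cultures in DMEM with 10 mM fructose, both for 25 days, and each culture was a separately adapted batch of cells read on 1 array. Cells were harvested near 70% confluency, some 24 hours after the medium was renewed. By its title, the series asks how gene expression answers when glycolysis is restricted. All cultures were of a single cell line, and the groups differed both in the sugar and in its concentration, which cannot be told apart here. In such bulk cultures, fewer cells that express a gene and less RNA per cell cannot be told apart either.

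TGF-beta ligands are secreted in a latent form and released outside the cell. The active ligand binds TGFBR2, a kinase receptor, which recruits and activates TGFBR1, and TGFBR3 is a co-receptor without a kinase domain that presents ligand, TGFB2 above all. TGFBR1 phosphorylates SMAD2 and SMAD3, which enter the nucleus with SMAD4 and change transcription. SMAD7 and SKIL are themselves induced by the signal and dampen it. In MDA-MB-231 cells the pathway is known for its part in invasion and in bone metastasis.

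The start regions of the 3 ligand genes are printed to show which motifs they hold. They were picked after TGFB1 was seen to be the only ligand whose arrays separated by sugar. That difference did not pass (limma adjusted p = 0.231), and a link between the motifs and the sugar was not tested. The windows are RefSeq sequence of GRCh38.p14, each holding the 250 bases before an annotated transcript start, written 5′ to 3′ along the gene. TGFB1 and TGFB2 have 1 listed start and TGFB3 has 2. Capitals mark exact matches on either strand to any of 4 short elements. The first is the GC box, spelled GGGCGG, which Sp1 family factors can bind. The next is the TATA motif, spelled TATAAA, where the basal transcription machinery can assemble. The others are the core of the cAMP response element, TGACG, and the E-box that MYC can bind, CACGTG. No matches overlapped within these 4 windows.
TGFB1 (chr19:41353923-41354172, minus strand): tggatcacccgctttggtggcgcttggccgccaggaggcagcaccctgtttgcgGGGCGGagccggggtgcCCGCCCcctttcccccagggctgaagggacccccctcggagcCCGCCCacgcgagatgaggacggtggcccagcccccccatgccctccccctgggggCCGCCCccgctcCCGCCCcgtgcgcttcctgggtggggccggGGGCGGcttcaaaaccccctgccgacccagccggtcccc
TGFB2 (chr1:218345086-218345335, plus strand): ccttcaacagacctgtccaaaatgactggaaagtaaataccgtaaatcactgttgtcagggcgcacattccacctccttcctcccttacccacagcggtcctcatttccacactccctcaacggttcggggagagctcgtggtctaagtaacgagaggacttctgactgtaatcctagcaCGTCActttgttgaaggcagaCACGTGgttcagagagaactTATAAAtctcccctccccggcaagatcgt
TGFB3, window 1 (chr14:75983012-75983261, minus strand): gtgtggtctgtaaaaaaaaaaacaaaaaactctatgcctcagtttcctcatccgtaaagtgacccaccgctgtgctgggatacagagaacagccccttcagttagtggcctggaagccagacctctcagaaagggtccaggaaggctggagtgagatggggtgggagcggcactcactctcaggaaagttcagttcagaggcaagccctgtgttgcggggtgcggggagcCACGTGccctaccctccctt
TGFB3, window 2 (chr14:75981996-75982245, minus strand): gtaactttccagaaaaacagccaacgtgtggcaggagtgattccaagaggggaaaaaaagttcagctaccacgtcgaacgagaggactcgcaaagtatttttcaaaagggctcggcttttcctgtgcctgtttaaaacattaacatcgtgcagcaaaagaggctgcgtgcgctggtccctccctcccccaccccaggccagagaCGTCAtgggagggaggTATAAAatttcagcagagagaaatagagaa
The TGFB1 window held 6 GC boxes and none of the other 3 motifs. At least 1 GC box stood in 42.6% of all 35116 windows of this length, and 6 or more in 2.22%. Many GC boxes were not particular to TGFB1 among the genes followed. A TGFBR1 window also held 6, a SMAD3 window held 4, and the SKIL and TGFBI windows held 3 each. The arrays of TGFB1 and TGFBR1 did not overlap between the sugars and those of SMAD3, SKIL and TGFBI did. Whether GC boxes bear on this was not tested. The TGFB2 window held no GC box, and 1 each of the TATA motif (10.7% of all windows), the TGACG core (21.2%) and the E-box (6.34%). The second TGFB3 window held 1 TATA motif and 1 TGACG core, and the first held 1 E-box alone. Such a match is only a run of letters and shows no binding.

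**Figure D1:**
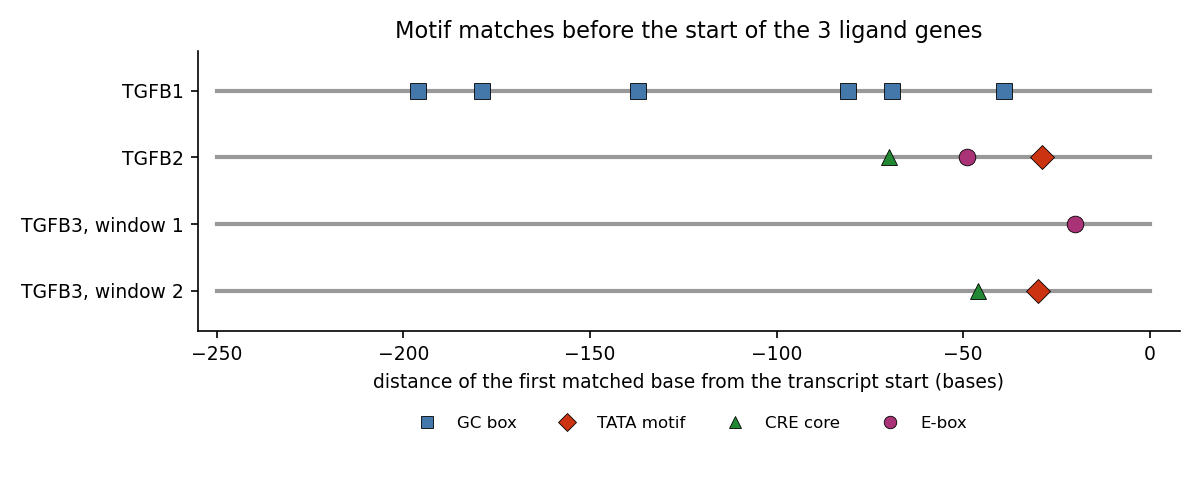
Positions of the motif matches in the 250 bases before each start of the 3 ligand genes, with the distance of the first matched base from the start (bases) on the x axis and a row per window. The 6 GC boxes (squares) lie in the TGFB1 row alone, while TGFB2 and the second TGFB3 window each carry a TATA motif (diamond) and a cAMP response element core (triangle).

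All 10 genes had a listed start, with 25 windows in all. GC boxes stood in 10 of these windows, in 7 of the genes. The full cAMP response element TGACGTCA, which holds that core on both strands and is found in 1.65% of all windows, stood in the SKIL window alone. CAGAC, a short element that SMAD proteins can bind, stood in 11 of the 25 windows and in 38.0% of all windows.

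The arrays behaved as a set of 6 comparable measurements. Intensities ran from 2.15 to 9287 with medians between 33.1 and 34.8. TXNIP, a glucose-induced inhibitor of glucose uptake, checked the sugar labels: its intensity was 1639, 1781 and 1656 in glucose and 107, 122 and 136 in fructose. It was the only probe set of 28230 past the threshold (limma, adjusted p = 4.7e-05), so that 0.00354% of all probe sets were called, and 13.1% had an unadjusted p under 0.05. In a principal component analysis fructose replicate 2 stood apart, at 5.67 on the first component where the other fructose arrays lay at 17.9 and 19.3 and the glucose arrays between -14.8 and -13.5. All 6 markers of the line (VIM, CD44, CAV1, AXL, PLAU and MSN) were above the median probe set. Of the markers of other cells, 5 of 7 luminal, 5 of 6 fibroblast and 4 of 4 measured leukocyte genes were below it, ESR1, PGR, CDH1, DCN and PTPRC among them. The luminal markers GATA3 and TFF1 and the fibroblast marker COL1A1 were above it, GATA3 brighter than 67.9% of probe sets. The summed intensity of the luminal markers was 193 to 200 in glucose and 172 to 197 in fructose, that of the fibroblast markers 84.0 to 89.9 and 80.9 to 86.5, and that of the leukocyte markers 63.5 to 71.8 and 62.2 to 65.8. These sums overlapped between the sugars. The markers of the line summed to 11120 to 11223 in glucose and 11299 to 11701 in fructose, without overlap.

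None of the 10 genes passed the test between the sugars. TGFB1 and TGFBR1 were the genes whose 3 fructose arrays all lay above the 3 glucose arrays, by 1.21-fold and 1.11-fold, and no gene of the 10 lay below without overlap. That is 2 of 10 against 13.0% of all genes higher without overlap, 10.0% lower and 23.0% in either direction, so the share is near the background. At an unadjusted p under 0.05, 1 of 10 (TGFB1) was found, where 14.3% of all genes were, 8.53% higher and 5.74% lower. The values were higher in fructose for 7 of the 10 and lower for 3, and 56.5% of all genes were higher. The median log2 difference of the 10 was 0.04 and that of all genes 0.02.

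**Figure D2:**
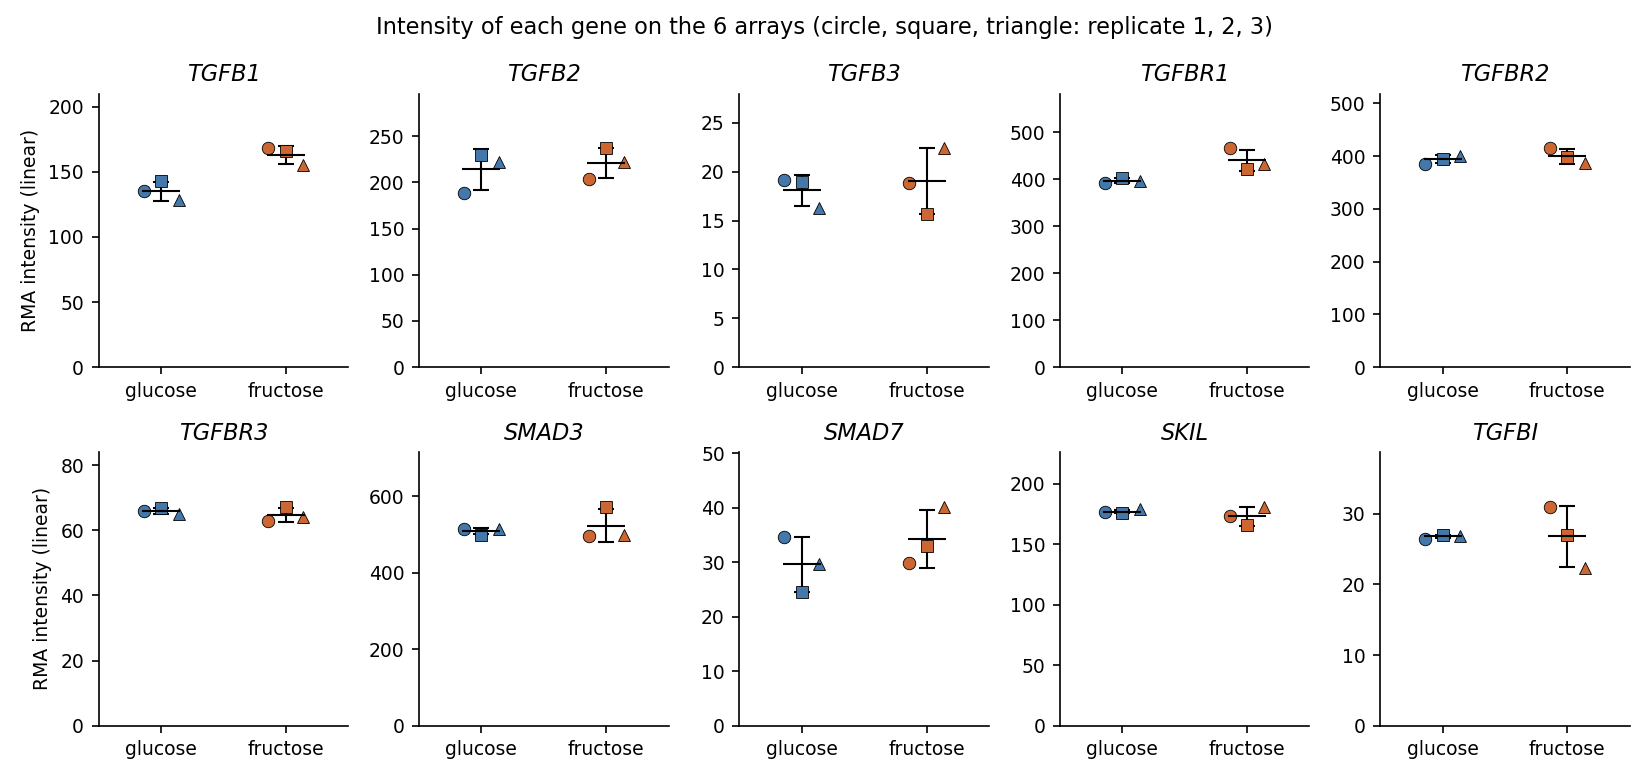
RMA intensity (linear, from 0) of each of the 10 genes on every array, with circles, squares and triangles for replicates 1, 2 and 3, a bar for the mean and whiskers of 1 SD (n = 3). TGFB1 and TGFBR1 are the panels in which the sugars do not overlap, and in the other 8 panels they do.

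TGFB1, the most widely made ligand, had intensities of 135, 143 and 128 in glucose and 168, 166 and 155 in fructose. The lowest fructose array was thus above the highest glucose array. The means were 135 ± 7.22 and 163 ± 7.02 (SD, n = 3), and the log2 difference was 0.27 (SE 0.07, 95% interval 0.09 to 0.44, limma adjusted p = 0.231). Of all genes, 91.3% had a smaller absolute difference. The adjusted p ran from 0.0761 to 0.443 over the 14 alternatives with a value for it, and the difference from 0.23 to 0.31.

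TGFB2, the ligand that depends most on the co-receptor, had intensities of 189, 230 and 222 in glucose and 204, 237 and 222 in fructose. The groups overlapped almost fully, with glucose replicate 1 the lowest array. Its log2 difference was 0.05 (95% interval -0.19 to 0.29, limma adjusted p = 0.88). TGFB3, the remaining ligand, was dim, below the median probe set. Its intensity was 19.2, 18.9 and 16.3 in glucose and 18.8, 15.7 and 22.4 in fructose, with the lowest and the highest array both in fructose. The log2 difference was 0.05 (95% interval -0.28 to 0.38), the wider interval of these ligands.

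TGFBR1, the receptor kinase that phosphorylates the SMAD proteins, had intensities of 393, 402 and 397 in glucose and 466, 421 and 432 in fructose. The glucose arrays lay within a narrow band and each fructose array above it, fructose replicate 2 the closest. The means were 397 ± 4.67 and 440 ± 23.3 (SD, n = 3), the log2 difference was 0.14 (SE 0.07, 95% interval -0.02 to 0.31), and the limma adjusted p was 0.428. TGFBR2, the ligand-binding kinase receptor, had 386, 394 and 401 in glucose and 415, 398 and 387 in fructose. Here the groups overlapped, and the log2 difference of 0.02 had a 95% interval from -0.13 to 0.18. TGFBR3, the co-receptor also called betaglycan, had 66.0, 66.9 and 65.0 in glucose and 62.9, 67.2 and 64.1 in fructose, which also overlapped. Its log2 difference was -0.03 (95% interval -0.18 to 0.12).

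**Figure D3:**
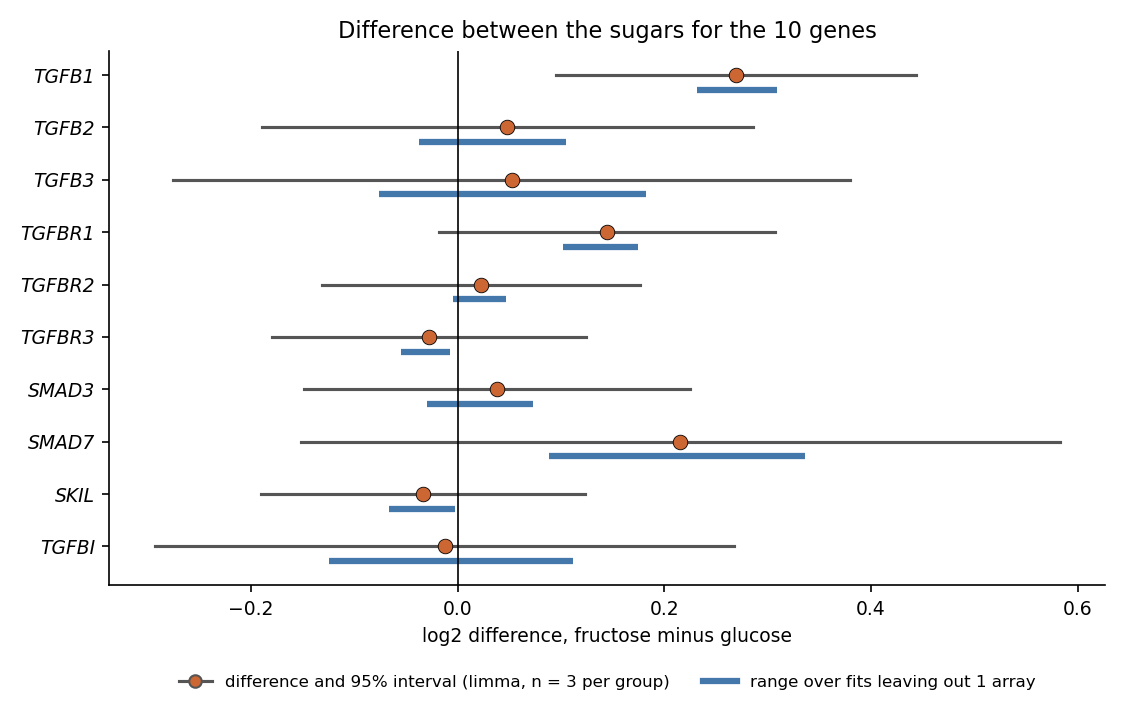
Log2 difference, fructose minus glucose, of each of the 10 genes (circles) with its 95% interval (dark lines, limma, n = 3 per group) and, below each, the range over the 6 fits that leave out 1 array (blue bars). The interval of TGFB1 alone lies wholly above 0, from 0.09 to 0.44, and the bars of TGFB1, TGFBR1 and SMAD7 stay above 0.

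The genes of a class were also set against each other within each array, 6 pairs in all, a comparison added after the values were seen. The log2 value of TGFBR1 minus that of TGFBR2 was between -0.01 and 0.03 on the glucose arrays and between 0.08 and 0.17 on the fructose arrays, without overlap. TGFBR1 minus TGFBR3 was 2.57 to 2.61 in glucose and 2.65 to 2.89 in fructose, again without overlap. For both pairs the exact two-sided permutation p was 0.1, the smallest that 3 against 3 arrays allow, and 0.3 after adjustment over the 6 pairs. TGFB1 minus TGFB2 was -0.79 to -0.49 in glucose and -0.52 to -0.28 in fructose, which overlapped, with an exact permutation p of 0.3. The mean of that difference was higher by 0.22 in fructose (SE 0.12), so a difference in response between these ligands was not shown. The pairs TGFB1 with TGFB3, TGFB2 with TGFB3 and TGFBR2 with TGFBR3 overlapped as well, with exact permutation p values of 0.4, 1 and 0.5.

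SMAD3, the transcription factor that the active receptor phosphorylates, had intensities of 514, 499 and 514 in glucose and 497, 573 and 499 in fructose. Fructose replicate 2 was the highest array and the other 2 fructose arrays were close to the lowest glucose array. The log2 difference was 0.04 (95% interval -0.15 to 0.22, limma adjusted p = 0.88), and without fructose replicate 2 it was -0.03. Array data on the transcript do not report how much of the protein was phosphorylated.

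The feedback genes did not separate the sugars. SMAD7, which blocks the receptor and recruits ubiquitin ligases to it, was dim, with 34.7, 24.6 and 29.6 in glucose and 29.8, 33.0 and 40.2 in fructose. The groups overlapped and each was spread widely, with means of 29.6 ± 5.06 and 34.3 ± 5.33 (SD, n = 3). The log2 difference was 0.22 (SE 0.16, 95% interval -0.15 to 0.58, limma adjusted p = 0.607), and it ran from 0.09 to 0.34 with an array left out. SKIL, a nuclear repressor that binds SMAD complexes and is degraded when the pathway is activated, had 177, 176 and 179 in glucose and 173, 166 and 181 in fructose. Its glucose arrays were among the tightest of the 10 genes, and the fructose arrays lay on either side of them. The log2 difference was -0.03 (95% interval -0.19 to 0.12).

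TGFBI, a secreted matrix protein named for its induction by TGF-beta, was dim as well, with 26.5, 27.0 and 26.9 in glucose and 31.0, 27.0 and 22.3 in fructose. The glucose arrays nearly coincided, and the fructose arrays lay above, at and below them. The group means were both 26.8, with an SD of 0.266 in glucose and 4.32 in fructose (n = 3), and the log2 difference was -0.01 (95% interval -0.29 to 0.27). The SD of log2 values was larger in fructose for 7 of the 10 genes, and for 56.9% of all genes.

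The intervals bound the difference in array signal, which is not the same as the change in the transcript. TGFB3, SMAD7 and TGFBI lie below the median probe set, which limits what their intervals can show. For 10 of 10 genes the 95% interval lay within a 2-fold change in either direction. The widest reached a log2 difference of 0.58, for SMAD7, and those of TGFBR2 and TGFBR3 ran from 0.913 to 1.13-fold and from 0.883 to 1.09-fold.

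By a rule on likeness, the genes with the most similar profile to TGFB1 over the 6 arrays were RRAGD, GOLGA1 and MMAB, out of 11058 genes above the median probe set. The root mean square difference of the centred log2 values was 0.0223, 0.0296 and 0.0311. RRAGD, a GTPase that acts on the mTORC1 kinase at lysosomes, had 149, 154 and 142 in glucose and 184, 177 and 171 in fructose. Its log2 difference was 0.26 (limma adjusted p = 0.226). GOLGA1, a Golgi membrane protein, differed by 0.25 and MMAB, an enzyme of cobalamin metabolism, by 0.32, and neither passed. These genes were picked by likeness to TGFB1 on the same arrays, so their differences follow from that choice and are no separate result.

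The rest of the pathway was read from 6 lists of 91 genes, of which 88 were measured and 3 were not analysed here. None of the 88 passed, the smallest adjusted p being 0.132 (limma), and at an unadjusted p under 0.05 there were 10 higher (11.4%) and 7 lower (7.95%), beside 8.53% and 5.74% of all genes. Without overlap between the sugars 14 were higher (15.9%) and 12 lower (13.6%), beside 13.0% and 10.0% of all genes. The median log2 difference was 0.03. As the lists were chosen with earlier results of these data known, these shares are a description and not a test.

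**Figure D4:**
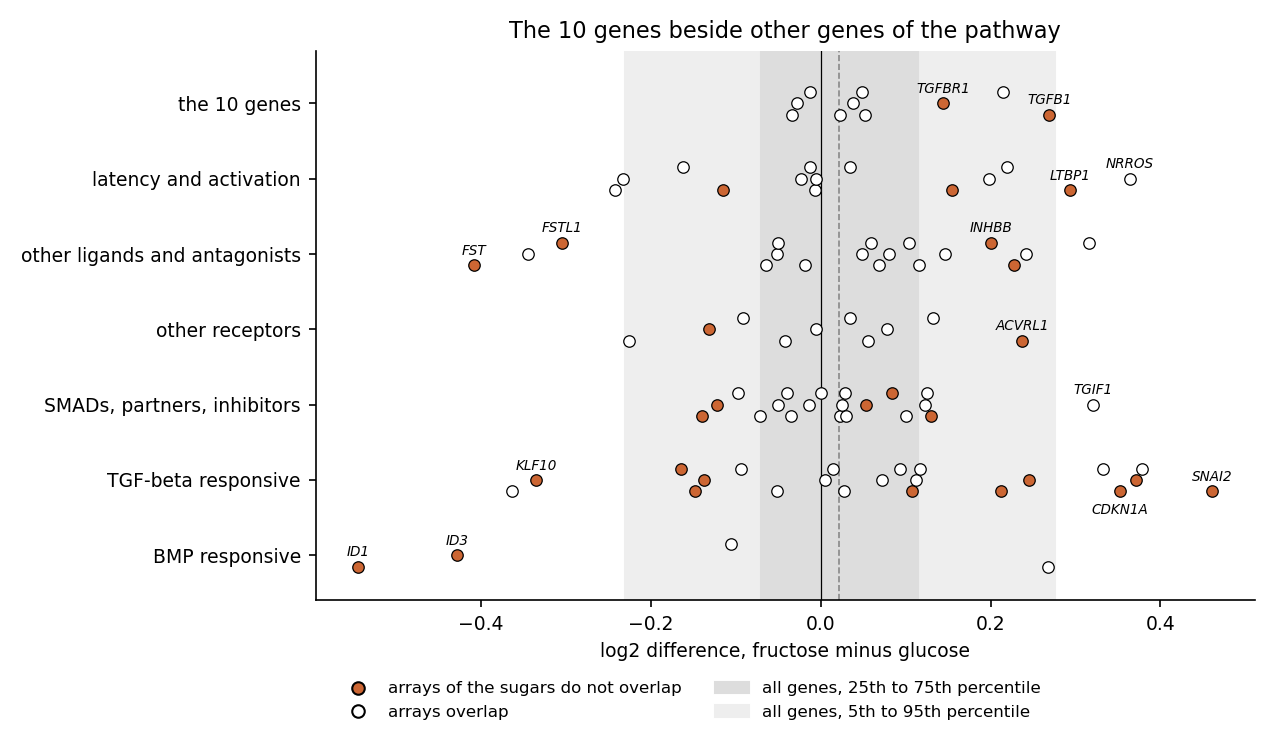
Log2 difference, fructose minus glucose, of the 10 genes and of 88 other genes of the pathway by list (1 point per gene), with points filled where the arrays of the sugars do not overlap and grey bands for the 5th to 95th and 25th to 75th percentile of all genes. FST, FSTL1, ID1 and ID3 are among the genes to the left of the outer band, and SNAI2 and CDKN1A among those to its right, while all of the 10 genes lie within it.

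Among 14 genes of ligand latency and activation, 6 had higher and 8 lower values, with a median of -0.01. Without overlap 14.3% were higher and 7.14% lower, near the 13.0% and 10.0% of all genes. LTBP1, which ties latent ligand to the matrix, had 85.2, 93.7 and 84.8 in glucose and 123, 99.1 and 102 in fructose. Its groups did not overlap, and the log2 difference was 0.29 (SE 0.10, limma adjusted p = 0.308), and 0.19 without fructose replicate 1. MMP14, a membrane protease that can release latent ligand, had 679, 701 and 695 in glucose and 784, 753 and 772 in fructose, also without overlap, a difference of 0.15 (adjusted p = 0.361 by limma). NRROS, which holds latent ligand on the cell surface, differed by 0.36 with overlapping arrays, and by 0.23 without fructose replicate 2. One gene was lower without overlap, the integrin subunit ITGAV, which is part of the receptors that free the ligand, with a difference of -0.12. It was chosen after its values were seen.

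The other ligands and antagonists of the superfamily numbered 18, with 11 higher and 7 lower values. Without overlap 11.1% were higher and 11.1% lower, near the 13.0% and 10.0% of all genes. FST encodes follistatin, which binds and neutralises activins. Its intensities were 375, 360 and 364 in glucose and 269, 277 and 282 in fructose, and each fructose array was well below each glucose array. The log2 difference was -0.41 (SE 0.06, 95% interval -0.56 to -0.26, limma adjusted p = 0.132). FSTL1, a secreted relative of follistatin, had 465, 438 and 444 in glucose and 361, 377 and 354 in fructose, a difference of -0.30 (adjusted p = 0.175 by limma). INHBB, a subunit of activin B, had 112, 110 and 106 in glucose and 127, 124 and 127 in fructose, a difference of 0.20. These groups did not overlap either, nor did those of FSTL3, a further activin antagonist chosen after its values were seen, with a difference of 0.23.

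The calls of FST and FSTL1 differed between settings. Among bright probe sets alone their adjusted p values were 0.0307 and 0.0463, and with an intensity trend and robust variances 0.0115 and 0.0243, where 2.30% and 1.68% of all probe sets tested were called. Over the 14 alternatives with values for them, the limma adjusted p ran from 0.0115 to 0.366 for FST and from 0.0243 to 0.411 for FSTL1. Probe sets of exactly 1 gene alone gave no value per gene. With the trend and robust variances none of the 10 genes passed, nor did any of the 7 that were tested among bright probe sets, which left out TGFB3, SMAD7 and TGFBI.

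Of 10 measured further receptors and co-receptors, 5 had higher and 5 lower values. Without overlap 10.0% were higher and 10.0% lower, near the 13.0% and 10.0% of all genes. ACVRL1, a receptor kinase best known from blood vessels, was dim, with 22.0, 20.4 and 21.5 in glucose and 25.1, 24.9 and 25.2 in fructose. Its groups did not overlap, and the log2 difference was 0.24 (SE 0.07, limma adjusted p = 0.23). ACVR1B, an activin receptor kinase, differed by -0.13 without overlap, and by -0.08 without glucose replicate 2. ACVR2A, which binds activins, differed by -0.23 with overlapping arrays.

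The 20 SMADs, partners and inhibitors inside the cell had a median difference of 0.02, with 12 higher and 8 lower values. No unadjusted p was under 0.05. Without overlap 3 of the 20 were higher and 2 lower, where 13.0% and 10.0% of all genes were. These shares are near the background. STRAP, a binding partner of SMAD7 at the receptor, had 691, 713 and 708 in glucose and 657, 638 and 622 in fructose, a difference of -0.14. NEDD4L, a ubiquitin ligase for activated SMAD proteins, had 616, 647 and 657 in glucose and 703, 699 and 698 in fructose, a difference of 0.13. For both genes the sugars did not overlap, and the limma adjusted p values were 0.408 and 0.437. TGIF1, a nuclear repressor of SMAD transcription, differed by 0.32 with overlapping arrays, and its 4 further probe sets gave values from -0.55 to 0.81, so its direction is not settled here. The difference was 0.48 without fructose replicate 2 and 0.08 as the mean of its probe sets. Chosen after their values were seen, SKI (0.05) and FKBP1A (0.08) were higher and USP15 (-0.12) lower without overlap.

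Transcripts known to respond to TGF-beta went both ways. Of 22 measured, 15 had higher and 7 lower values with a median of 0.08, and without overlap there were 6 higher (27.3%, where 13.0% of all genes were) and 4 lower (18.2%, where 10.0% were). At an unadjusted p under 0.05 there were 6 higher and 3 lower, beside 8.53% and 5.74% of all genes. Because this list was chosen with earlier results of these data known, its shares only describe the genes listed and test nothing. SNAI2, a repressor of epithelial genes, had 694, 663 and 718 in glucose and 953, 996 and 908 in fructose, a log2 difference of 0.46 (SE 0.07, limma adjusted p = 0.132). It passed among bright probe sets alone (0.0319) and with an intensity trend and robust variances (0.00682). Its adjusted p reached 0.366 over the 14 alternatives with a value for it. CDKN1A, the inhibitor p21 through which TGF-beta slows the cell cycle in epithelial cells, had 117, 115 and 133 in glucose and 158, 157 and 150 in fructose, a difference of 0.35 (adjusted p = 0.188 by limma). KLF10, an early response gene that also answers to glucose, had 142, 158 and 149 in glucose and 126, 117 and 113 in fructose, a difference of -0.33. The other genes without overlap were chosen after their values were seen. Those with higher values were the transcriptional repressor BHLHE40 (0.37), the protease inhibitor TIMP1 (0.25), the cytokine IL11 (0.21) and the matricellular gene CCN1 (0.11). Those with lower values were the matrix genes FN1 (-0.16) and COL1A1 (-0.15) and the Notch ligand JAG1 (-0.14).

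The 4 ID genes, which respond to the related bone morphogenetic proteins and encode inhibitors of basic helix-loop-helix factors, had a median difference of -0.27. ID1 had 130, 114 and 148 in glucose and 80.3, 104 and 85.0 in fructose, without overlap, with fructose replicate 2 the closest to glucose. Its log2 difference was -0.54 (SE 0.13, 95% interval -0.85 to -0.24, limma adjusted p = 0.199). ID3 was dim, with 33.7, 31.3 and 35.1 in glucose and 26.2, 28.4 and 20.5 in fructose, a difference of -0.43. ID4 differed by -0.11 and ID2, a very dim gene chosen after its values were seen, by 0.27, both with overlapping arrays. With an array left out the difference of ID4 ran from -0.20 to -0.01, the latter without fructose replicate 3.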

How the data were processed

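Expression was measured on 6 arrays of biotin-labelled total RNA, 3 per sugar. The authors deposited 1 intensity for every probe set on each array, from RMA according to the submitters' processing notes. RMA corrects background, normalizes between arrays and combines probes. The program, its version and the genome build were not given in the sources used here. Since no deposited intensity was below 2.15 and the largest was 9287, the scale was taken as linear and values were converted to log2. Arrays have no read depth, and their number limits the precision.

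Of 32321 rows, 4091 with identifiers below the lowest annotated one were taken as controls and left out. Of 28230 tested probe sets, 19158 have 1 gene in the platform annotation, 1388 several and the rest none. Where a gene had several probe sets, the brightest by mean log2 over the arrays stood for it, which gave 18404 genes. Gene numbers of 19128 probe sets matched the RefSeq table of GRCh38.p14, and 0 symbols changed. All 10 genes matched RefSeq start windows.

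Groups came from the titles. Fructose minus glucose was fitted in R 4.3.3 by limma 3.58.1 (eBayes after lmFit, without covariates, two-sided), adjusting by Benjamini-Hochberg over all tested probe sets and a threshold of 0.05. The fit was tested on simulated data with changes larger than any of the 10 genes showed, so recovery of changes of their size was not tested. Replicates are separately adapted batches of 1 line, so p-values measure the spread between batches. Named genes are the 10, TXNIP, the cell markers, the 3 with the smallest p of each pathway list, and the 3 nearest to the gene with the smallest p. Any other gene is marked as picked afterwards. The members and lists were chosen with earlier results of these data known. Alternatives were a replicate block, leaving out each array, quantile normalization again, centring, bright probe sets alone, robust variances with an intensity trend, weighted arrays, an unmoderated test, averaging the probe sets of a gene, and probe sets of exactly 1 gene alone.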

Additional observations from a re-analysis of the deposited data

How the results depend on the processing

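None of the 10 genes passed in an alternative with a value for it. Bright probe sets alone tested 7 of them (not TGFB3, SMAD7 or TGFBI), and probe sets of exactly 1 gene alone gave no value per gene. TGFB1, TGFBR1, SMAD7, TGFBR3 and SKIL kept their sign in each alternative with values for them. With 1 array left out, the log2 difference ran from -0.038 to 0.105 for TGFB2, -0.076 to 0.182 for TGFB3, -0.0046 to 0.047 for TGFBR2, -0.030 to 0.073 for SMAD3 and -0.124 to 0.111 for TGFBI, so these signs are not settled. TGFBR2 was at -0.0030 once arrays were centred on their medians, and TGFBI at 0.016 with array weights. The number of the 10 lower without overlap ran from 0 to 1 with an array left out (TGFBR3 without fructose replicate 2, SKIL without fructose replicate 3), and the number higher from 2 to 3 (SMAD7 added without glucose replicate 1, TGFBI without fructose replicate 3). Leaving out an array can only add genes to these counts. The shares of all genes in these fits were not computed, so nothing is read from the added genes. At an unadjusted p under 0.05 there were 2 of the 7 tested among bright probe sets alone, and 2 of the 10 with an intensity trend and robust variances and with the unmoderated test, against 1 in the report. The shares of all genes under that p in these settings were not computed either, so nothing is read from the added gene. Of the other pathway genes 3 passed among bright probe sets alone (FST, FSTL1 and SNAI2) and 4 with the trend and robust variances, which added TIMP1 (adjusted p = 0.0345), chosen after its values were seen. Over all probe sets the number called was 325 among bright probe sets alone, 473 with the trend and robust variances, 8 with probe sets of exactly 1 gene alone and 0 with the unmoderated test, where TXNIP still differed by -3.80 with an adjusted p of 0.0878. The cause was not tested.

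With the replicate number as a block the count of the 10 past the threshold was 0 and that over all probe sets 1, as without it, and TGFB1 differed by 0.27 with an adjusted p of 0.397. Deviations of same-numbered arrays correlated at -0.026, -0.021 and -0.054, so the arrays share only a number. The genes TGFB3, SMAD7 and TGFBI lie below the median probe set, which limits what a difference there can show.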
